A study of Mus musculus with 2 samples.

Results

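Interferon-stimulated tumour cells (members in the figures) were selected on a readout of the same data, as the top 10% of all MC38 tumour cells by the summed UMIs (counted transcripts) of Ifit1, Ifit3, Isg15 and Rsad2 per 10000 UMIs of the cell, with both libraries ranked together. They numbered 1128 of 11283 tumour cells, out of 29048 barcodes in all. Of them 968 were in the control library, 25.5% (95% Clopper-Pearson interval 24.2 to 27.0) of its 3790 tumour cells. The UBD library held 160, 2.14% (1.82 to 2.49) of its 7493 tumour cells. Tumour cells were barcodes with at least 5000 UMIs, at most 20% mitochondrial UMIs, at least 5 Cdkn2a UMIs per 10000 and 0 UMIs of Ptprc, the pan-leukocyte gene. The cells were thus chosen by Ifit1, Ifit3, Isg15, Rsad2, Cdkn2a and Ptprc, so the levels of these genes and the share of cells in each library describe the choice and were not tested.

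The cells came from tumours that formed under the skin of mice from MC38, an established mouse colon carcinoma line. One group was the control and the other overexpressed UBD (ubiquitin D, also called FAT10), a ubiquitin-like modifier that marks proteins for the proteasome. Tumours were minced, digested and profiled by droplet 3' single-cell RNA sequencing, with 1 library in each group. The labels do not state the host's strain, the number of tumours behind a library, the vector or the time of growth. With 1 library a group no difference between the libraries could be tested, the group and the library cannot be told apart, and all intervals cover counting error only.

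Type I interferons bind the receptor chains Ifnar1 and Ifnar2, whose kinases activate transcription factors. These bind the interferon-stimulated response element, or ISRE, in the promoters of antiviral genes. Interferon gamma acts through its own receptor and the GAS element, and the genes that both pathways induce overlap widely. In tumours this response is known for raising MHC class I, T cell-attracting chemokines and PD-L1.

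The promoters of the genes that defined the cells are shown with those of Cxcl10 and B2m, because the ISRE core is what the scored genes share by sequence. Capitals mark each match to the core, which is GAAA, any 2 bases and GAAA, on either strand, so that a match on the other strand reads TTTC, any 2 bases and TTTC, and overlapping matches run together. Sequences are from RefSeq on GRCm38.p6, 5' to 3' on the gene's own strand, and end at the base before the start of transcription. Ifit1 (chr19:34640739-34640888, + strand) and Ifit3 (chr19:34583329-34583528, + strand) held 2 matches each, Isg15 (chr4:156200819-156200968, - strand) held 3, and Rsad2 (chr12:26456453-26456602, - strand), Cxcl10 (chr5:92348890-92349139, - strand) and B2m (chr2:122147537-122147686, + strand) held 1 each.
Ifit1: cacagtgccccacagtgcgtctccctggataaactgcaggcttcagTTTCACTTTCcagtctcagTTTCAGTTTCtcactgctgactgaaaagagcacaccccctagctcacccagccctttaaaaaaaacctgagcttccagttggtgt
Ifit3: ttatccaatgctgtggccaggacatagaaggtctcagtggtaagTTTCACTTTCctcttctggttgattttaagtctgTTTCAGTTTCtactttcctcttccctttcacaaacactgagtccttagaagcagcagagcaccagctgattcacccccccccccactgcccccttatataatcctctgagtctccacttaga
Isg15: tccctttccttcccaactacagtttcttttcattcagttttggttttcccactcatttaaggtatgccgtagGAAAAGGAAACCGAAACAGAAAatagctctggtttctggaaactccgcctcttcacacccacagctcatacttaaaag
Rsad2: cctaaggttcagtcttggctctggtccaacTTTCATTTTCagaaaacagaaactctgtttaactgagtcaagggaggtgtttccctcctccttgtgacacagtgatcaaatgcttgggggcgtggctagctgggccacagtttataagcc
Cxcl10: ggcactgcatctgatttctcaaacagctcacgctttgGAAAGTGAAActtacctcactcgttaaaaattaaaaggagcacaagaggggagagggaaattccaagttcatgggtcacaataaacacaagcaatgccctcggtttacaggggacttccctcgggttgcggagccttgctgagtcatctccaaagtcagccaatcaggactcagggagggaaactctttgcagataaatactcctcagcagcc
B2m: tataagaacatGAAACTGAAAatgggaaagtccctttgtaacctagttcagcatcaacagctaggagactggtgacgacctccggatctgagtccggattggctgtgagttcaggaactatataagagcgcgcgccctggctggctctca
The window searched ran from 250 bases before to 50 bases after the start. The core was present for 1079 of 27025 genes of the table (3.99%) and for 26 of the 51 genes (51.0%) of the interferon-stimulated list that had a promoter there. Of 10 interferon gamma-induced GTPase genes and targets with a promoter, 9 held the ISRE core and 6 held the GAS letters TTC, any 3 bases and GAA, which were present for 9.55% of all genes. A match is a description of letters and does not show that a factor binds there.

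Ubd, the targeted gene, was rarely detected. It had 19 UMIs (0.905 CPM) in the interferon-stimulated and 15 UMIs (0.171 CPM) in the other tumour cells of the control library, a log2 ratio of 2.40 (1.35 to 3.48). The UBD library had 15 UMIs (5.60 CPM) and 159 UMIs (1.07 CPM), a ratio of 2.39 (1.52 to 3.16). The level in the other tumour cells of the UBD library was thus near 1 CPM. It was above the control level in both classes of cells. Whether transcripts of the introduced construct carry the sequence that 3' reads count is not stated in the labels. Among cells taken with the top 5% limit the control ratio was 0.35.

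Cdkn2a was a condition for every tumour cell, so its level is a description and no check of the label. It stood at 1925 CPM (UMIs of the gene per 1000000 UMIs summed over a class of cells) in the interferon-stimulated cells of the control library and 1987 CPM in its other tumour cells. The UBD library had 1726 and 1849 CPM. The sum of 4 Y-linked genes was 2.29 CPM in the interferon-stimulated cells of the control library and 0.747 CPM in those of the UBD library, against 0.914 and 0.859 CPM in the other tumour cells and 108 and 96.1 CPM in host myeloid cells. All 4 of these genes were higher in the interferon-stimulated than in the other tumour cells of the control library, and the part of this signal in the results was not tested. The epithelial keratins Krt8 and Krt18 were low in these cells, as described with the genes that were lower. The other MC38 markers listed, Vim, Lgals1, Tm4sf1, Prdx1 and S100a6, passed 1.5-fold in neither direction in either library. Vim stood at 3428 CPM in the interferon-stimulated and 3525 CPM in the other tumour cells of the control library. The UBD library had 2387 and 2523 CPM. No barcode was shared between the interferon-stimulated cells of the libraries, while 10 were shared among all tumour cells and 71 among all barcodes.

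Depth and mitochondrial share moved with the choice of cells. The interferon-stimulated cells of the control library had a median of 16168 UMIs and 5.47% mitochondrial UMIs, against 27618 UMIs and 3.21% in the other tumour cells. Those of the UBD library were 13972.5 UMIs and 3.02%, against 17658 UMIs and 3.30%. The part of depth and RNA quality in the results was not tested, and values with the other cells matched on UMIs are given where they moved a result. Macrophage or monocyte markers (14 genes) summed to 438 CPM in the interferon-stimulated cells and 323 CPM in the other tumour cells of the control library, and to 821 and 560 CPM in the UBD library, against 26752 and 26065 CPM in host myeloid cells. Of the 14 markers 6 were at least 1.5-fold higher in the interferon-stimulated cells of the control library, and 10 in those of the UBD library, where 1 marker was at 0, beside 12.7% and 12.9% of all genes. Of these sums Fcer1g alone made 456 and 395 CPM in the UBD library, and 78.7 and 77.5 CPM in the control library. The part of this signal in the results was not tested. Lyz2, a macrophage lysozyme, stood at 0.822% (control) and 1.12% (UBD) of its host level in the interferon-stimulated cells. The other tumour cells had 0.482% and 0.539%. Fcer1g stood at 1.61% and 14.3% of its host level, against 1.59% and 12.4% in the other tumour cells. The 4 scored genes summed to 27.6 and 20.2 UMIs per 10000 in the interferon-stimulated cells of the control and UBD libraries, against 14 and 1.13 in the host myeloid cells. Scrublet called 21 (2.17%) and 5 (3.13%) of the interferon-stimulated cells doublets.

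The score had no gap at the limit. The lowest cell taken had 7.78 and the highest cell left out 7.77 UMIs per 10000, and 156 control and 34 UBD cells lay within 20% below the limit. The median score of the cells taken was 17.0 in the control library (up to 372) and 15.4 in the UBD library (up to 104). The cells left out differed between the libraries. Among control cells their median score was 1.26 and 16.9% had no UMI of the 4 genes, while in the UBD library 80.6% had none. All 4 genes were detected in 67.6% of the control and 30.6% of the UBD cells taken. Ifit1, which binds viral RNA lacking a host cap, stood at 913 against 30.6 CPM in the control library and 933 against 4.31 CPM in the UBD library. Its family member Ifit3 stood at 440 against 17.7 and 284 against 1.68 CPM, the ubiquitin-like modifier Isg15 at 727 against 105 and 600.4 against 17.4 CPM, and the antiviral enzyme Rsad2 (viperin) at 679 against 19.5 and 207 against 0.892 CPM.

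**Figure D1:**
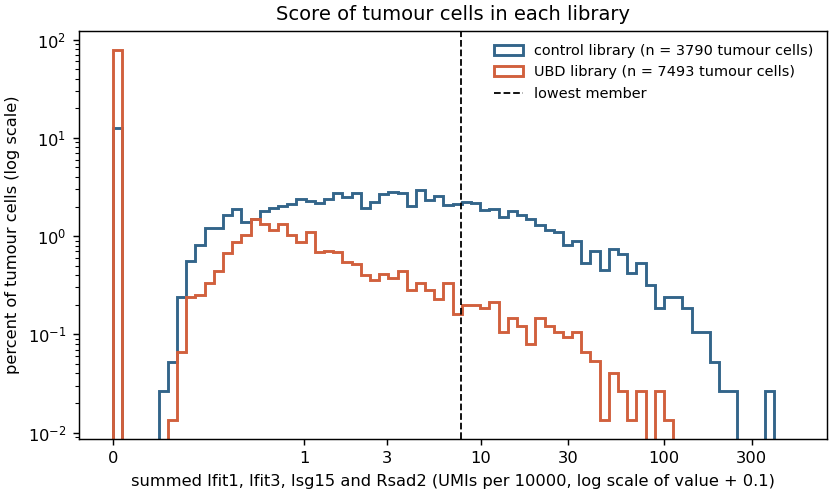
Distribution of the score over all tumour cells of each library, as percent of cells (log scale) by summed UMIs of the 4 genes per 10000 (log scale of the value plus 0.1). The control curve runs through the dashed limit at 7.78 without a gap, while 78.9% of UBD tumour cells sit at 0.

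Genes of the interferon response that the choice did not use were higher in the chosen cells of both libraries. In the control library 59 of 63 such genes were at least 1.5-fold higher and 0 lower, where 12.7% of all 13911 genes tested were that much higher and 3.75% lower. Their median log2 ratio was 1.69 (interval over genes 1.35 to 1.90), beside 0.03 for all genes. In the UBD library 57 of the 59 with at least 20 summed UMIs were higher and 0 lower, where 12.9% of 13958 genes were higher and 9.55% lower, with a median of 2.75 (2.31 to 2.94) beside -0.06. These ratios come from the cells that were ranked and are a description. When cells were ranked on a random 50% of each cell's UMIs and the levels were read in the remaining UMIs, the medians were 1.65 and 2.64.

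Ifit3b, a near-identical neighbour of Ifit3 whose reads may be split with it, stood at 120 CPM (2511 UMIs) against 4.33 in the control library and 85.5 CPM (229 UMIs) against 0.450 in the UBD library. Its log2 ratios were 4.79 (4.63 to 4.95) and 7.57 (7.17 to 7.99). Ifit2 stood at 65.0 against 5.68 CPM in the control library and 38.8 against 5.54 CPM in the UBD library, so this gene, unlike Ifit3b, had a like level in the other tumour cells of both. Oasl1, of the oligoadenylate synthetase family, stood at 201 against 14.5 CPM and 61.6 against 0.866 CPM. Cmpk2, a mitochondrial nucleotide kinase encoded beside Rsad2, stood at 74.6 against 5.80 CPM and 26.1 against 0.389 CPM. The antiviral GTPase Mx1 stood at 62.7 against 6.54 CPM and 23.5 against 2.53 CPM. All 5 were above the other tumour cells of their own library by more than counting error, with the lowest of the 10 log2 ratios at 2.81.

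The abundant interferon-induced membrane proteins differed less. Bst2 (tetherin), which holds budding virus at the cell surface, stood at 1967 against 910 CPM in the control library and 917 against 247 CPM in the UBD library. Ifitm3, which blocks viral fusion, stood at 3329 against 2079 CPM and 2565 against 1185 CPM. Ly6e, a surface antigen, missed 1.5-fold in both, with log2 ratios of 0.54 (0.52 to 0.57) and 0.38 (0.32 to 0.45). Of 22 OAS, Mx and effector genes 21 passed 1.5-fold upward among control cells and 22 among UBD cells. All 5 tested genes of the Isg15 conjugation cycle were at least 1.5-fold higher in both, with medians of 1.20 and 2.31. Among them Usp18, which removes Isg15 from proteins and also restrains the interferon receptor, stood at 110 against 21.8 CPM and 44.4 against 2.30 CPM, and the ligase Herc6 at 39.1 against 9.15 and 34.3 against 5.07 CPM.

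**Figure D2:**
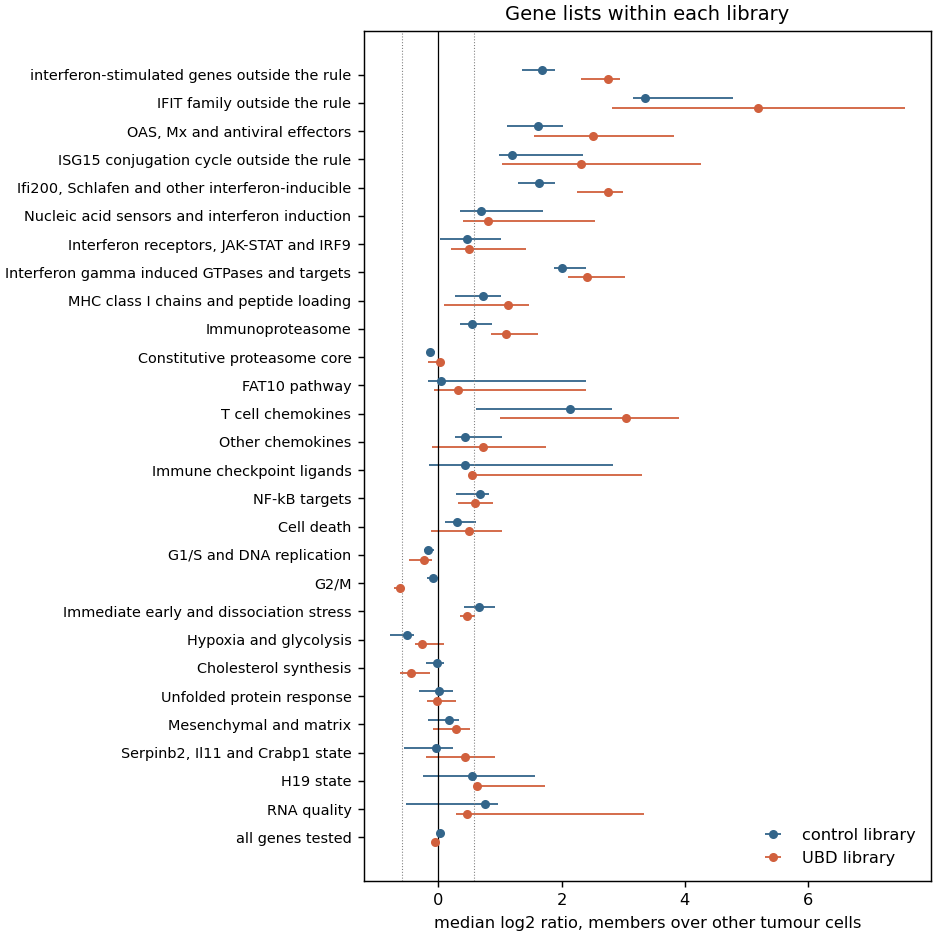
Median log2 ratio of interferon-stimulated over other tumour cells for gene lists, by library, with the order-statistic interval over genes. Dotted lines mark 1.5-fold. The cell type marker, interferon ligand and keratin lists are not drawn. For the H19 state and immune checkpoint lists of the UBD library the lower limit fell on a gene at 0 UMIs, and only the upper bar is drawn. The 63-gene list lies at 1.69 (control) and 2.75 (UBD) and the T cell chemokines at 2.14 and 3.04, the receptor and JAK-STAT list at 0.47 and 0.50, while the constitutive proteasome list lies at -0.13 and 0.02.

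Sensors and signal transducers of the response were raised in part. Of 15 nucleic acid sensor and interferon induction genes 9 were at least 1.5-fold higher in each library, with medians of 0.69 and 0.80. Ifih1 (MDA5), a sensor of long double-stranded RNA, stood at 114 against 12.4 CPM in the control library and 82.9 against 2.53 CPM in the UBD library. Its relative Ddx58 (RIG-I) stood at 93.4 against 37.0 and 44.4 against 12.2 CPM. Zbp1, a sensor of Z-form nucleic acid, stood at 196 against 67.0 and 124 against 21.1 CPM. Tmem173 (STING), the adaptor of the DNA-sensing pathway, had log2 ratios of 0.11 (0.01 to 0.21) and 0.70 (0.52 to 0.87).

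The receptor chains did not pass 1.5-fold, while the transcription factor genes Stat2, Irf7, Irf9 and Irf1 did. Ifnar1 stood at 23.7 against 21.6 CPM in the control library and 26.1 against 23.9 CPM in the UBD library, and Ifnar2 at 43.5 against 50.6 and 61.2 against 52.9 CPM. The kinase Jak1 stood at 88.6 against 93.4 and 86.6 against 81.0 CPM. Stat2 stood at 43.8 against 8.18 CPM in the control library and 19 against 2.15 CPM in the UBD library. Irf7, which amplifies type I interferon production, stood at 141 against 43.3 CPM and 58.2 against 3.55 CPM. Irf9 had log2 ratios of 1.01 (0.90 to 1.12) and 1.51 (1.13 to 1.87), and Irf1 of 1.27 (1.22 to 1.31) and 1.42 (1.31 to 1.52). In all 7 of 16 receptor and JAK-STAT genes were at least 1.5-fold higher among control cells, 6 of 16 among UBD cells, and 0 lower.

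Ifnb1, the gene of interferon beta, was the only one of 14 interferon ligand genes with enough UMIs to test in the control library. Its UMIs lay in few cells. Among control cells 248 UMIs came from 26 interferon-stimulated cells (2.69%) and 6 UMIs from 6 other tumour cells (0.213%), and 1 cell held 146 of the 248. The level was 11.8 CPM, and 4.87 CPM without that cell, against 0.0685 CPM in the other tumour cells. The 242 interferon-stimulated cells with the highest scores held 240 of these UMIs, in 20 cells. In the UBD library 22 UMIs came from 5 interferon-stimulated cells, 12 of them from 1 cell, and 2 UMIs from 2 other tumour cells. There the 40 cells with the highest scores held 2 of the 22 UMIs, in 1 cell. In each library 2 of these positive cells also had at least 20 UMIs of 5 myeloid genes (Tyrobp, Fcer1g, C1qa, C1qb and C1qc). Chosen after these values were seen, the control cells with an Ifnb1 UMI were set beside the 942 without. Those with an Ifnb1 UMI had a median of 30417 UMIs, against 16168 in all interferon-stimulated control cells. Cxcl10 stood at 6928 against 4327 CPM and Ifih1 at 291 against 107 CPM, whereas the 63-gene list stood at 9976 against 11209 CPM. The cells compared were not matched on score. The 242 control cells with the highest scores, which include 20 of the 26, had 9104 CPM of Cxcl10 and 13795 CPM of the list. In the UBD library, with 5 cells with an Ifnb1 UMI, Cxcl10 stood at 1604 against 1909 CPM. Ifih1 stood there at 65.6 against 83.6 CPM and the list at 4970.3 against 6864 CPM.

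Genes known for induction by interferon gamma were also higher. Of 17 such GTPase genes and targets tested in the control library 16 were at least 1.5-fold higher, with a median of 2.01 (1.87 to 2.39), and in the UBD library 18 of 19, with 2.41 (2.10 to 3.03). Gbp2, a guanylate-binding protein that attacks membranes of intracellular microbes, stood at 63.0 against 13.6 CPM in the control library and 203 against 38.3 CPM in the UBD library. Iigp1, an immunity-related GTPase, stood at 124 against 34.5 and 192 against 38.6 CPM, and its regulator Irgm1 at 161 against 40.0 and 136 against 25.9 CPM. The ligand gene Ifng stood at 0.0952 CPM in the interferon-stimulated cells of the control library and at 0 in those of the UBD library.

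All 4 measured genes of the T cell chemokine list, Cxcl9, Cxcl10, Ccl5 and Cxcl16, were at least 1.5-fold higher in each library. Cxcl10, which is a marker of the cells but was not scored, stood at 4426 against 625 CPM in the control library and 1897 against 126 CPM in the UBD library. After each cell was thinned to 5000 UMIs, 94.7% of interferon-stimulated and 60.5% of other tumour cells of the control library had a Cxcl10 UMI, and 76.9% and 16.7% in the UBD library. Without thinning the shares were 97.9% and 86.1%, and 86.3% and 29.8%. In host myeloid cells, which express the gene, the thinned shares were 69.6% and 40.1%. The other ligand of CXCR3 measured, Cxcl9, stood at 37.9 against 7.13 CPM and 147 against 18.0 CPM. Its log2 ratios of 2.41 and 3.03 were 0.91 in the control library with the top 5% and 1.06 in the UBD library among cells with no UMI of the 5 myeloid genes. Ccl5 stood at 687 against 187 CPM and 120 against 14.5 CPM. Cxcl16 had the lowest ratios of the list, at 13.6 against 8.87 CPM and 10.1 (27 UMIs) against 5.07 CPM, and its UBD log2 ratio was -0.22 among cells with no UMI of the 5 myeloid genes. Ccl4, from the list of other chemokines, stood at 168 against 20.1 CPM and 53.4 against 4.15 CPM. Of its UMIs in the interferon-stimulated UBD cells, 77 came from the 5 cells with an Ifnb1 UMI and 66 from the other 155. Its log2 ratio of 3.68 in the UBD library was 0.26 among cells with no UMI of the 5 myeloid genes, where 22 interferon-stimulated cells remained. Ccl2, which attracts monocytes, stood at 2596 against 1301 CPM and 1154 against 293 CPM, and the neutrophil attractant Cxcl1 at 1369 against 861 and 449.5 against 261 CPM.

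NF-kB target genes were higher by less than the antiviral genes. Of 19 such genes 12 were at least 1.5-fold higher among control cells, with a median of 0.67, and 10 among UBD cells, with 0.59. With the other cells matched on UMIs the medians were 0.38 and 0.48. Nfkbia, the inhibitor that the pathway itself induces, stood at 886 against 546 CPM in the control library and 566 against 314 CPM in the UBD library, with a control log2 ratio of 0.46 against cells matched on UMIs.

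**Figure D3:**
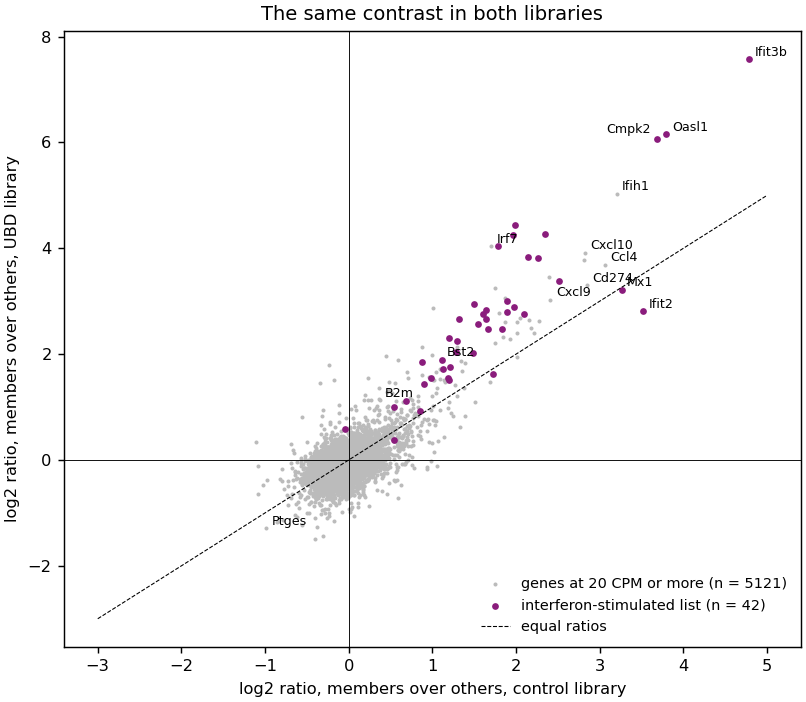
Log2 ratio of interferon-stimulated over other tumour cells for 5121 genes at 20 CPM or more in at least 1 class of cells of each library, control library on the x axis and UBD library on the y axis; purple points are the 42 genes of the interferon-stimulated list at this level. Purple points such as Ifit3b (4.79 and 7.57) lie mostly above the dashed line of equal ratios, with Ifit2 (3.52 and 2.81) below it.

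Antigen presentation genes were higher by a smaller factor. Of 18 MHC class I chain and peptide loading genes 10 were at least 1.5-fold higher in the control library (median 0.72, and 0.51 with the other cells matched on UMIs) and 11 in the UBD library (median 1.14). B2m, the light chain of class I, stood at 2272 against 1757 CPM in the control library, a log2 ratio of 0.37 (0.36 to 0.39), and at 2080 against 953 CPM in the UBD library, 1.13 (1.09 to 1.16). The heavy chain H2-K1 stood at 228 against 164 CPM and 147 against 53.1 CPM, and H2-D1 at 821 against 685 and 671 against 304 CPM. The chaperone Canx was lower in the control library, with a log2 ratio of -0.50 (-0.55 to -0.45), and had -0.15 (-0.26 to -0.04) in the UBD library. The H2 genes are close copies, and how reads shared between them were counted is not given in the sources used here.

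The inducible proteasome stood apart from the constitutive core. The immunoproteasome subunit Psmb8 stood at 135 against 92.3 CPM in the control library and 134 against 48.7 CPM in the UBD library. Psmb10 stood at 237 against 134 and 208 against 96.8 CPM, and the activator subunit Psme1 at 251 against 182 and 290 against 152 CPM. Of the 5 inducible genes 2 passed 1.5-fold upward among control cells and 5 among UBD cells, while 0 of the 14 constitutive core genes passed 1.5-fold in either direction in either library.

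Of 8 genes of immune checkpoint ligands tested, 3 were at least 1.5-fold higher in each library. Cd274, which encodes PD-L1, stood at 22.8 CPM (478 UMIs) against 3.17 CPM in the control library and 26.9 CPM (72 UMIs) against 2.73 CPM in the UBD library. Its log2 ratios were 2.84 (2.63 to 3.06) and 3.30 (2.92 to 3.66). After thinning, 11.5% and 2.27% of control cells and 13.8% and 1.28% of UBD cells had a Cd274 UMI, against 22% and 7.83% and 26.9% and 3.86% without thinning. Lgals9 (galectin-9) stood at 90.4 against 49.4 and 80.3 against 18.2 CPM. Cd47, a signal that restrains phagocytosis, stood at 261 against 290.4 and 289 against 266 CPM and passed 1.5-fold in neither.

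**Figure D4:**
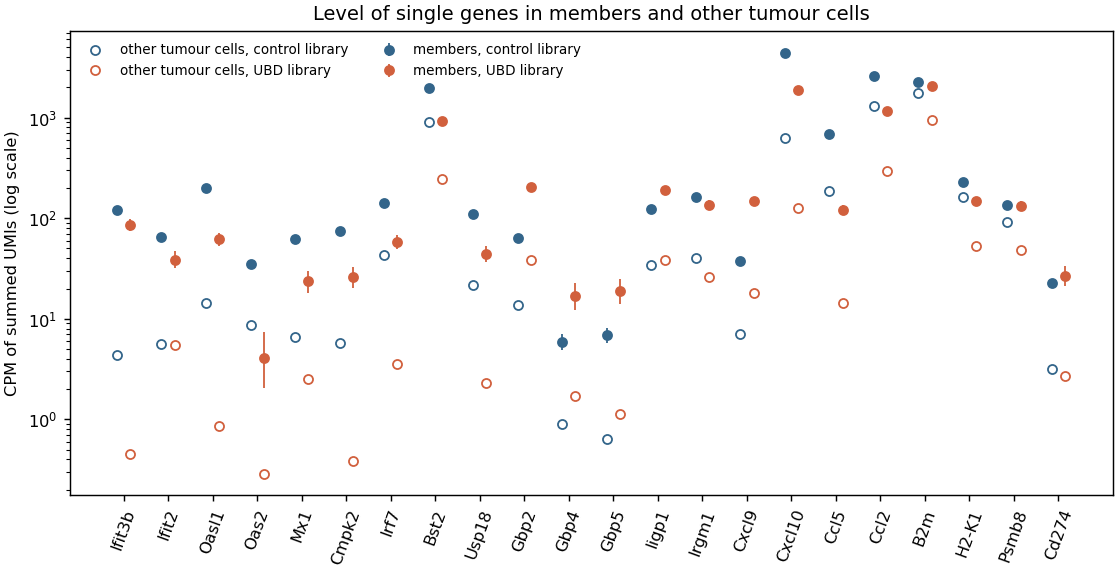
Summed CPM (log scale) of 22 genes in interferon-stimulated cells (filled, labelled members, with the exact Poisson interval) and other tumour cells (open) of each library. For Cxcl10 the filled points lie at 4426 and 1897 CPM and the open points at 625 and 126 CPM, while for B2m the filled points lie at 2272 and 2080 CPM.

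With at least 20 summed UMIs, fewer genes were lower than higher past 1.5-fold in each library, a balance that depends on this filter. The interferon-stimulated UBD cells held 2678434 of 151717181 tumour UMIs, and a gene at 0 took a floor of 3 UMIs. There a gene near the filter could be called higher on few UMIs, but hardly lower. The UBD share of higher genes was smaller with 5 expected UMIs, as given at the end. Of genes tested, 3.75% were lower in the interferon-stimulated cells of the control library, and 9.55% in those of the UBD library. Among genes tested in both, 675 were higher in both, 43.9% of those higher in the control library and 41.1% of those higher in the UBD library, and 130 were lower in both, 28.1% and 9.88%. Among genes with at least 50 summed UMIs and 20 CPM whose ratio interval excluded 1 in both libraries, at any size of ratio, the balance was the other way, with 504 higher in both and 1003 lower in both. Ptges, the prostaglandin E synthase, stood at 22.1 against 43.9 CPM in the control library and 15.7 against 38.4 CPM in the UBD library. The hypoxia-responsive gene Ankrd37 stood at 24.6 against 42.4 and 16.1 against 35.2 CPM, the uridine phosphorylase Upp1 at 15.4 against 27.9 and 14.9 against 33.5 CPM, and the glucose transporter Slc2a3 at 14.2 against 22.7 and 14.9 against 23.3 CPM. The retinol-binding protein gene Rbp4 stood at 128 against 200.5 and 98.6 against 202 CPM. Of 19 hypoxia and glycolysis genes 8 were lower past 1.5-fold among control cells (median -0.51) and 2 among UBD cells (median -0.27). Pgk1 stood at 891 against 1386 CPM in the former, and Ldha at 859.6 against 1247 CPM. Several of these ratios did not reach 1.5-fold under an alternative. Among cells with no UMI of the 5 myeloid genes the log2 ratio of Ankrd37 was -0.12 and that of Pgk1 -0.46 (control), and that of Rbp4 -0.30 (UBD), the ratio of Upp1 was -0.46 with the top 5% (control), and that of Slc2a3 -0.17 with cells taken within each library (UBD).

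The keratin genes Krt8 and Krt18 were lower in both libraries. Krt18 stood at 4.52 against 14.3 CPM in the control library and 14.2 against 80.2 CPM in the UBD library, and its partner Krt8 at 4.67 against 12.7 and at 0.747 (2 UMIs) against 42.4 CPM. Among cells with no UMI of the 5 myeloid genes the control log2 ratio of Krt18 was -0.25. Uchl1, a deubiquitinase, stood at 4.14 against 21.7 CPM in the control library, and the oxidoreductase Ero1l at 172 against 366 CPM. Trf (transferrin) stood at 87.8 against 190.1 CPM there. Among the lowest ratios of the UBD library were also those of Phlda2, at 5.23 (14 UMIs) against 31.4 CPM, of Sapcd1, at 4.11 (11 UMIs) against 20.5 CPM, and of the Notch ligand gene Jag1, at 8.96 (24 UMIs) against 33.7 CPM.

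Genes of the G2/M list were at like levels in the control library and lower in the UBD library. Of 20 G2/M genes 0 passed 1.5-fold in the control library (median -0.09), while 13 were lower past 1.5-fold among UBD cells (median -0.62, and -0.27 to -0.67 over the alternatives). Of 20 G1/S and DNA replication genes 0 passed 1.5-fold among control cells (median -0.17) and 3 were lower among UBD cells (median -0.23), a share of 15% beside 9.55% of all genes. Mki67, a marker of cycling cells, stood at 56.7 against 60.6 CPM and 31.0 against 46.4 CPM, and Birc5 (survivin) at 154 against 172 and 77.3 against 139 CPM, the latter with a log2 ratio of -0.84 that was -0.38 with cells taken within each library. After thinning to 5000 UMIs, a UMI of any of the 20 genes was present in 79.1% (76.4 to 81.7) of interferon-stimulated and 76.7% (75.1 to 78.3) of other cells of the control library, and in 58.1% (50.1 to 65.9) and 69.7% (68.7 to 70.8) of those of the UBD library.

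UMIs of genes that mark other tumour cell states were also found in interferon-stimulated cells. Among control cells 33.6% of them and 39.7% of the other cells had a UMI of Serpinb2, Il11 or Crabp1 after thinning, and in the UBD library 8.13% and 5.29%. The imprinted transcript H19 was present in 7.34% and 4.50% of control cells and 23.1% and 21.1% of UBD cells. Among control cells with an H19 UMI 35.9% (29.2 to 43.0) were interferon-stimulated, and 22.5% (20.4 to 24.8) among those with a UMI of Serpinb2, Il11 or Crabp1. For the UBD library these shares were 2.34% (1.65 to 3.21) and 3.24% (1.74 to 5.48). Cells with a Krt18 UMI were interferon-stimulated in 9.09% (4.63 to 15.7) of control and 0.527% (0.171 to 1.23) of UBD cases. A Krt18 UMI was present in 3.13% (1.02 to 7.14) of the interferon-stimulated UBD cells, from 5 cells. In UBD host myeloid cells the share was 1.30% (0.695 to 2.22). These intervals overlap, and with 5 cells the shares do not show whether the level was above background. Summed without thinning, Krt18 stood at 14.2 CPM (38 UMIs) in the interferon-stimulated UBD cells and 2.91 CPM (31 UMIs) in UBD host myeloid cells.

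Stress and RNA quality genes moved with the control cells. Of 21 immediate early and dissociation stress genes 13 were at least 1.5-fold higher in the control library (median 0.67) and 7 in the UBD library (median 0.46). Jun stood at 2792 against 1638 CPM and 1680.1 against 1313 CPM. Gm42418, a transcript annotated over a ribosomal RNA repeat, stood at 3596 against 2116 CPM and 1202 against 983 CPM, and Lars2 at 297 against 152 and 71.3 against 56.4 CPM. With the other cells matched on UMIs the control log2 ratios were 0.43 for Jun, 0.13 for Gm42418 and 0.25 for Lars2, and the median of the 63 interferon genes was 1.54.

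Interferon-stimulated cells of the UBD library carried less of the response than those of the control library at the same limit. Of the 63 genes 44 were lower past 1.5-fold in the UBD cells and 0 higher, where 20.6% of 12054 genes tested were that much lower and 10.2% higher, with a median log2 ratio of -0.82 (-1.12 to -0.65). Per cell, the 63 genes summed to a median of 115 UMIs per 10000 in the control cells (10th to 90th percentile 68.1 to 187) and 54.6 in the UBD cells (26.5 to 127), so the ranges overlapped. The other tumour cells differed in the same direction, at 55.2 and 22.5. Cxcl10 had a log2 ratio of -1.22 (-1.26 to -1.18), Irf7 of -1.28 (-1.52 to -1.04), Usp18 of -1.31 (-1.59 to -1.05) and Bst2 of -1.10 (-1.16 to -1.04). Oas2 stood at 4.11 CPM (11 UMIs) in the UBD cells and 35.1 CPM in the control cells.

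The interferon gamma-induced genes went the other way at this limit. Of 16 tested, 8 were at least 1.5-fold higher in the UBD cells and 0 lower, with a median of 0.57 (-0.15 to 1.47), which was -0.25 when the top 10% were taken within each library. Gbp2 stood at 203 against 63.0 CPM, with a log2 ratio of 1.69 (1.54 to 1.83). Cxcl9 stood at 147 against 37.9 CPM, a ratio of 1.95 (1.78 to 2.13), but of -0.99 among cells with no UMI of the 5 myeloid genes. Cells with no such UMI numbered 22 in the UBD and 196 in the control library, while 19.4% of interferon-stimulated UBD cells and 5.06% of control cells had 20 or more UMIs of these genes, against 16% and 4.85% of the other tumour cells. In the UBD library these limits mostly followed Fcer1g. It stood at 456 CPM in the interferon-stimulated UBD cells, against 55.6 CPM for C1qa, and at 395 CPM in the other tumour cells. B2m (-0.13) and Psmb8 (-0.02) had like levels in the interferon-stimulated cells of both libraries. Cd274 had 0.24 (-0.14 to 0.60), but -1.72 when the top 10% were taken within each library.

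The genes with the largest differences between these cells of the libraries were mostly outside the interferon response. Higher in the UBD cells were Igfbp5, an insulin-like growth factor binding protein, at 76.5 against 2.14 CPM, Acp5 (tartrate-resistant acid phosphatase) at 75.4 against 2.14 CPM, Lbp (lipopolysaccharide-binding protein) at 82.5 against 4.14 CPM, Tshz2 at 82.9 against 7.38 CPM and the collagenase Ctsk at 116 against 12.8 CPM. Lower were the neurofilament gene Nefl at 1.87 (5 UMIs) against 55.3 CPM, Tnip3 at 1.12 (3 UMIs) against 21.9 CPM, the acute-phase gene Saa3 at 1.49 (4 UMIs) against 24.1 CPM and Serpinb2 at 5.23 (14 UMIs) against 43.1 CPM. The other tumour cells differed in the same direction for all 9 of these genes, for example Acp5 at 44.6 against 4.96 CPM, Ctsk at 67.9 against 13.2 CPM and Serpinb2 at 2.75 against 46.1 CPM. Acp5 and Ctsk also mark osteoclast-like host cells. They stood at 411 and 297 CPM in host myeloid cells of the UBD library, and at 81.5 and 49.0 CPM in those of the control library. No Y-linked UMI was found in 98.75% of the interferon-stimulated UBD cells. With only such cells taken and ranked again, Acp5 was below the other tumour cells of that library, as given at the end. The summed Acp5 level of the interferon-stimulated UBD cells thus rested largely on the few cells with a Y-linked UMI. The part of host signal in these levels was not tested. Over all genes, 16.1% were lower and 10% higher past 1.5-fold in the other tumour cells of the UBD library.

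Along the score the response was graded in the control library. When each library's tumour cells were ordered by score and divided into 10 bins, the 63-gene sum ran from 3230 CPM in the lowest to 12927 CPM in the highest bin of the control library, and each bin was above the one before. Cxcl10 ran from 259 CPM in the lowest bin to 2952 in the ninth and 7312 in the highest. The first 7 bins of the UBD library held only cells with no UMI of the scored genes, in arbitrary order, and the 63-gene sum stayed between 2211 and 2360 CPM over the first 8. It was 3247 CPM in the ninth and 5312 CPM in the highest bin. The median mitochondrial share in the control library went from 3.02% in the lowest to 6.02% in the highest bin and the median depth from 25880 to 14443 UMIs. Over single cells the score and the 63-gene sum had a Spearman correlation of 0.767 in the control library (3790 cells) and 0.371 in the UBD library (7493 cells), between points that share a library and the depth of each cell.

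**Figure D5:**
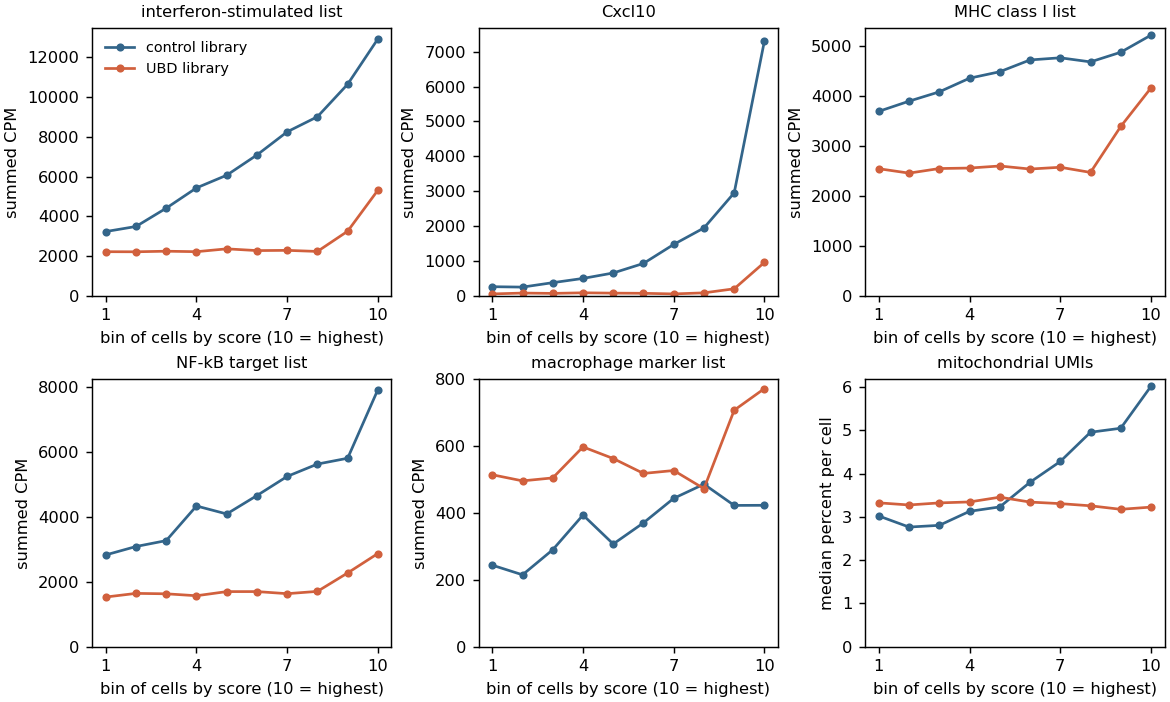
Summed CPM of 4 gene lists and Cxcl10 and the median mitochondrial percent per cell in 10 bins of tumour cells by score, for each library. In the control library the interferon-stimulated list climbs from 3230 to 12927 CPM across the bins, while in the UBD library it is flat until the ninth bin.

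Among the interferon-stimulated cells themselves, the 242 cells with the highest scores in the control library had a Cxcl10 level of 9104 CPM against 2318 in the 242 with the lowest, and Ccl5 of 1614 against 314 CPM. B2m stood at 2465 against 2221 CPM, and the G2/M list at 1437 against 1572 CPM. For the highest and lowest 40 cells of the UBD library Cxcl10 stood at 2996 against 1380 CPM, Ccl5 at 322 against 35.5 CPM and B2m at 2090 against 2059 CPM. Within these cells Cxcl10 and Ccl5 were thus higher in the highest than in the lowest cells of both libraries, and B2m differed little between them. The rise was not steady in the UBD library. The 40 cells next above the lowest were below them, at 1038 CPM of Cxcl10 and 26.3 CPM of Ccl5.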

How the data were processed

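Per the labels' protocols, dissociated tumours were profiled with a Chromium 3' v3 kit, with 1 library per group. The authors deposited raw UMI counts for 31053 genes, in a sparse matrix for each library. The submitters' processing notes name Cell Ranger, STAR and mm10, and per the file headers the software version was 3.1.0. Nothing further on alignment, annotation or cell calling is stated. The table's gene IDs matched GENCODE vM21 on GRCm38 for 30934 of 31053.

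The members, gene lists and comparisons were chosen with earlier results of these data known. Each class of cells was summed and its genes expressed as CPM. CPM have exact Poisson intervals, ratios exact conditional binomial intervals and shares Clopper-Pearson intervals, all at 95%. With 1 library a group there was no test and no p-value. Scored, gating and mitochondrial genes were left out of lists and counts. Genes needed 20 summed UMIs, and a gene was counted as higher or lower past 1.5-fold. List medians have order-statistic intervals over genes. Of the list symbols, 6 were absent from the table.

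Genes were named by rule: at least 50 UMIs and 20 CPM with an interval excluding 1, the 12 highest and 12 lowest in the same direction in both libraries, 6 and 6 in each library, 8 and 8 between libraries, up to 4 per list by UMIs, 23 fixed genes and the 4 scored genes. Not all of these are described. Shares of cells with a UMI used cells thinned to 5000 UMIs, except where given as without thinning. Those of the scored genes, the 5 myeloid genes and Y-linked genes were without thinning. Host myeloid cells (2602 control, 1651 UBD, median 4018.5 and 5820 UMIs) had a Ptprc UMI, at least 20 UMIs of C1qa, C1qb, C1qc and Lyz2 per 10000, and Cdkn2a under 5 per 10000. Their thinned shares used the cells with 5000 UMIs or more. The tumour cells held 108570233 control and 151717181 UBD UMIs. Predicted doublets (Scrublet in scanpy 1.11.5) were kept, and removed in an alternative. The alternatives changed the limit, the pooling, the score, the limits on depth and mitochondrial UMIs, host and doublet cells, the gene filter, weighting by cells and depth matching. Scripts were tested on simulated data and used Python 3.11.15, numpy 2.4.6, scipy 1.17.1 and pandas 2.3.3.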

Additional observations from a re-analysis of the deposited data

Results flagged for a closer look

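For 3 genes the interferon-stimulated cells were on opposite sides of the other tumour cells in the 2 libraries. The difference between the libraries was not tested. Lcn2 (lipocalin 2) had a log2 ratio of 0.88 in the UBD library, at 14.6 CPM (39 UMIs) against 7.92 CPM, and of -1.62 in the control library, at 25.6 against 78.5 CPM. The cytokine gene Il11 had 1.16 in the UBD library, at 12.7 CPM (34 UMIs) against 5.67 CPM, and -0.81 in the control library, at 44.7 against 78.2 CPM. Acp5 had 0.76 in the UBD library, at 75.4 against 44.6 CPM, and -1.21 in the control library, at 2.14 against 4.96 CPM. Under alternatives the ratio of Acp5 was below 0 in the UBD library in 9 settings, down to -2.89. It was above 0 in the control library in 2 settings. The ratio of Lcn2 in the UBD library was -0.88 and -0.32 in 2 settings. All of these settings changed which cells were taken, so the opposite directions of these 2 genes depend on the choice of cells. For Acp5 leaving out cells with a Y-linked UMI turned the direction in both libraries. Il11 turned in neither library.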

How the results depend on the processing

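With the top 5% taken, the share of interferon-stimulated cells was 13.0% of control and 0.961% of UBD tumour cells, and with the top 20% 49.3% and 5.2%. The control share was 27.9% with the score from thinned cells and 22.4% without cells with a myeloid UMI (24.1% without those with 20 or more), and the UBD share 1.69% without a myeloid UMI and 2.60% at 10% mitochondrial UMIs. The median of the 63 genes in the UBD library was 2.94 with the top 5% and 2.23 with cells taken within each library. Between the interferon-stimulated cells of the libraries it was -2.05 within each library and -1.22 as a mean over cells. Genes at least 1.5-fold higher were 8.36% in the control library with 100 summed UMIs and 6.80% with matched depth, and 6.67% in the UBD library with 5 expected UMIs. Genes lower were 6.23% (control) and 5.79% (UBD) within each library, 6.31% and 18.1% without a myeloid UMI, and 2.03% (control) with 100 summed UMIs. No gene list past 1.5-fold changed direction. Acp5 did in the UBD library, at -2.89 (top 5%), -0.30 (top 20%), -2.54 (thinned score), -2.12 (10% mitochondrial), -1.79 (no Y-linked UMI), -1.84 (no myeloid UMI), -1.21 (no doublets), -1.56 (Cdkn2a at 10) and -1.03 (under 20 myeloid UMIs), and in the control library, at 0.47 (no Y-linked UMI) and 0.25 (under 20 myeloid UMIs). In the UBD library Lcn2 was -0.88 (top 5%) and -0.32 (Cdkn2a at 10), Crabp1 -0.22 (top 5%) and -0.89 (under 20 myeloid UMIs), Lyz2 -0.085 (thinned score) and -0.37 (under 20 myeloid UMIs) and Serpinb2 -0.13 and Cxcl16 -0.22 (no myeloid UMI). Cxcl9 between the libraries was -0.99 (no myeloid UMI). The cause was not tested. The matched depth, the 20-UMI myeloid limit, the 5 expected UMIs and the comparison between libraries were added after seeing the data. No paired analysis was possible because each group has 1 library. With 160 cells and few UMIs a gene, the UBD library limits what can be seen.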
